A study of Mus musculus with 6 samples.

Results

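Tubulins are the proteins that build microtubules, and the 8 tubulin genes described here are isotypes chosen for their place in the developing cortex: Tuba1a, Tuba1b, Tubb2a, Tubb2b, Tubb3, Tubb4b, Tubb5 and Tubg1. They were found by gene symbol among the 24041 genes of the deposited count table, where all 8 were present, and all 8 passed the filter on low counts that left 14451 tested genes. Messenger RNA was measured in sorted GFP-positive cells of mouse cerebral cortices after electroporation, the transfer of plasmid DNA by electric pulses. The cells had received GFP with a mutant PRPF6 (3 libraries) or GFP with wild-type PRPF6 (3 libraries), and their RNA was amplified with a low-input kit. The PRPF6 protein belongs to the spliceosome's tri-snRNP. The labels used here do not give the PRPF6 mutation, the species of the plasmid's PRPF6, or the strain, age or number of the animals. Every library carried a PRPF6 plasmid beside the cells' own Prpf6, so a rise with mutant PRPF6 and a fall with wild-type PRPF6 cannot be told apart. The labels do not say whether replicates came from separate animals, so p-values measure only how far these samples vary, possibly for technical reasons.

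A microtubule is a hollow polymer of dimers, each of 1 α- and 1 β-tubulin, and γ-tubulin, encoded by Tubg1, starts new microtubules at the centrosome and elsewhere. Mammals have several α and β genes, whose products, the isotypes, differ most in the acidic tail at the carboxyl end, which projects from the microtubule and carries glutamate chains added by enzymes. In the developing cortex microtubules form the mitotic spindle of progenitors and the processes of migrating neurons. Mutations of TUBA1A, TUBB2B, TUBB3, TUBB (also called TUBB5) and TUBG1 cause cortical malformations in people, and TUBB3 protein is widely used as a marker of neurons.

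No tubulin gene passed the test between cells given mutant and wild-type PRPF6. Among the 8 genes 3 had higher and 5 lower means with mutant PRPF6, the log2 differences lay between −0.32 for Tubg1 and 0.22 for Tuba1b, and the groups overlapped for every gene. What the 8 genes did show was a wide order of levels, from Tuba1a, the most abundant, to Tubg1, and different patterns across the 6 libraries.

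The genes lie on 6 chromosomes of GRCm38, by the GENCODE M21 annotation matched by symbol. Tuba1a (chromosome 15, 98949837 to 98953703) and Tuba1b (98931425 to 98934565) lie 15.3 kb apart on the minus strand. Tubb2a (chromosome 13, 34074274 to 34078007) and Tubb2b (34126748 to 34130466) lie 48.7 kb apart, also on the minus strand. Tubb3 is on chromosome 8 (123411424 to 123422015, plus strand), Tubb4b on chromosome 2 (25222160 to 25224702, minus strand), Tubb5 on chromosome 17 (35833921 to 35838306, minus strand) and Tubg1 on chromosome 11 (101119938 to 101126419, plus strand). The α and β genes had 4 exons each in the transcript with the longest coding sequence, and Tubg1 had 11.

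The ends of the coding sequences of the β genes and Tubg1 are shown because they encode the tails, in which most of these isotypes differ, and because near-identical stretches decide which reads can be assigned to 1 gene. Each line gives the last 60 coding bases before the stop codon, 5′ to 3′ on the coding strand, from GENCODE M21 transcripts, with glutamate codons in capitals.
Tubb2a, chr13:34074471-34074530, minus strand: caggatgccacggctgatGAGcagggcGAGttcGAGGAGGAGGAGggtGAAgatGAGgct
Tubb2b, chr13:34127474-34127533, minus strand: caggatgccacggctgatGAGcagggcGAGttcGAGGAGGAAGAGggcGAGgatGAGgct
Tubb3, chr8:123421620-123421679, plus strand: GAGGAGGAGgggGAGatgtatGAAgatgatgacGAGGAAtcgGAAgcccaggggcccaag
Tubb4b, chr2:25222311-25222370, minus strand: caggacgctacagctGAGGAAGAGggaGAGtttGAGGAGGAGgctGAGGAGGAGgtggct
Tubb5, chr17:35834985-35835044, minus strand: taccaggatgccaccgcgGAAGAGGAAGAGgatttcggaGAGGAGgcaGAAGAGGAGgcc
Tubg1, chr11:101126167-101126226, plus strand: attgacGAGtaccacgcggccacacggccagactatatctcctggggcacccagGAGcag

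Among these last 20 codons the β genes had 8 to 10 glutamate codons and Tubg1 had 2. The Tubb2a and Tubb2b ends differ at 3 codons but encode the same residues. Counted position by position without alignment, the other pairs of printed β tails differ at 6 to 17 of the 20 positions. That count includes shifts between tails of unequal length. Tubb4b and Tubb5, for example, differ at 13 of these positions but at only 11 of 445 residues when the whole proteins are aligned. Over the whole coding sequence Tuba1a and Tuba1b were identical at 98.3% of aligned bases, and their translated products differed at 2 of 451 residues. Tubb2a and Tubb2b were identical at 96.5% of bases and differed at 2 of 445 residues. Tubb3 shared 90.7% to 91.6% of residues with the other β genes, which shared 95.3% to 99.6% among themselves. Of coding bases it shared 81.5% to 83.6%, a range that overlaps theirs, since Tubb4b and Tubb5 shared 82.3%. Tubg1 shared 31.3% to 33.1% of residues with the others.

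This likeness bears on the counts, which were made with RSEM and divided between genes where reads fit several. All 8 rows hold values that are not whole: 46 of the 48 values were not, the exceptions being Tubb2a in wild-type replicate 3 and Tubb4b in wild-type replicate 1. Among all tested genes 16.6% had such a value in at least 1 library. As a measure of how far reads could be shared, the transcript of each gene was cut into every window of 150 bases, the read length, and looked for in the other genes' GENCODE transcripts. Tuba1a had 54.7% and Tuba1b 57.9% of its windows in another gene, most often Tuba1c (26.8% for Tuba1a and 40.7% for Tuba1b), while 16.9% and 17.5% of their windows were found in each other. The annotated gene Gm49450 held 26.1% of the Tuba1a and 27.0% of the Tuba1b windows, and further annotated genes held others. Whether reads were divided with those genes was not tested. Tubb2a had 27.9% and Tubb2b 20.1%, all of them in each other. For Tubb4b 16.8% were found, in the pseudogene Tubb4b-ps1, and for Tubg1 0.9%, in Tubg2. Tubb3 and Tubb5 had none, yet their values were not whole in any library. The split of reads within the Tuba1 and Tubb2 pairs is therefore uncertain, and their sums are given beside them.

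The libraries held 45115122 to 60600617 expected counts, so that 1 count was worth 0.0164 to 0.0228 CPM (counts per 1000000 counts of the library, after scaling), and the 8 tubulin genes took 1.50% to 1.98% of them. Prpf6 was at 131, 145 and 125 CPM in mutant replicates 1 to 3 and at 166, 124 and 131 CPM in wild-type replicates 1 to 3. Whether plasmid transcripts are among those counts was not tested. Marker genes of the cortex, such as Neurod6 of young neurons and Fabp7 of radial glia, the cortical stem cells, were present in all libraries. Wild-type replicate 3 stood apart by its summed red blood cell markers, 16278 CPM over 10 distinct rows (the rows of Hbb-b2 and Hbb-bt are identical and were counted once), against 683, 1548 and 78.6 CPM in the mutant libraries and 946 and 2735 CPM in the other wild-type libraries. It also had the highest sum of 7 meningeal fibroblast markers, 1688 CPM, against 12.2 to 166 CPM elsewhere. Mutant replicate 1 stood apart as well: its Spearman correlation with the other libraries across genes was 0.922 to 0.939, against 0.945 to 0.970 among those. It had Neurod6 at 57.5 CPM, against 583 to 1275 CPM elsewhere, and Fabp7 at 1535 CPM, against 343 to 578 CPM elsewhere. Without it 0 of the 8 tubulin genes passed the test, and their log2 differences lay between −0.25 for Tuba1a and 0.33 for Tuba1b.

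Levels of different genes were compared per length, as CPM per kilobase of annotated exons. Tuba1a came first, with 5609 ± 688 CPM per kilobase in mutant and 6212 ± 1089 in wild-type libraries (SD, n = 3 each). Tuba1b followed with 1127 ± 308 in mutant and 965 ± 281 in wild-type libraries. Tubb5, the β isotype of dividing and many other cells, had 519 ± 37.1 in mutant and 534 ± 52.8 in wild-type libraries, and Tubb3 had 345 ± 47.8 in mutant and 372 ± 119 in wild-type libraries. Tubb2b had 232 ± 45.5 in mutant and 239 ± 53.4 in wild-type libraries. Tubb2a had 222 ± 76.6 in mutant and 209.9 ± 65.1 in wild-type libraries, and Tubb4b 186 ± 44.3 in mutant and 175 ± 25.7 in wild-type libraries. Tubg1 was lowest, at 52.3 ± 16.6 CPM per kilobase with mutant and 65.4 ± 11.2 with wild-type PRPF6. The ranges over all 6 libraries did not overlap between Tuba1a and Tuba1b, Tuba1b and Tubb5, Tubb3 and Tubb2b, or Tubb4b and Tubg1. With coding length in place of exon length, or with CPM alone, the ranges of Tuba1b and Tubb5 and of Tubb3 and Tubb2b overlapped, each earlier gene being higher in 4 of 6 libraries, and those of Tubb5 and Tubb3 did not. By exon length they overlapped between Tubb5 and Tubb3, although Tubb5 was higher within each of the 6 libraries, and Tubb2b, Tubb2a and Tubb4b could not be ordered beyond their spread.

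**Figure D1:**
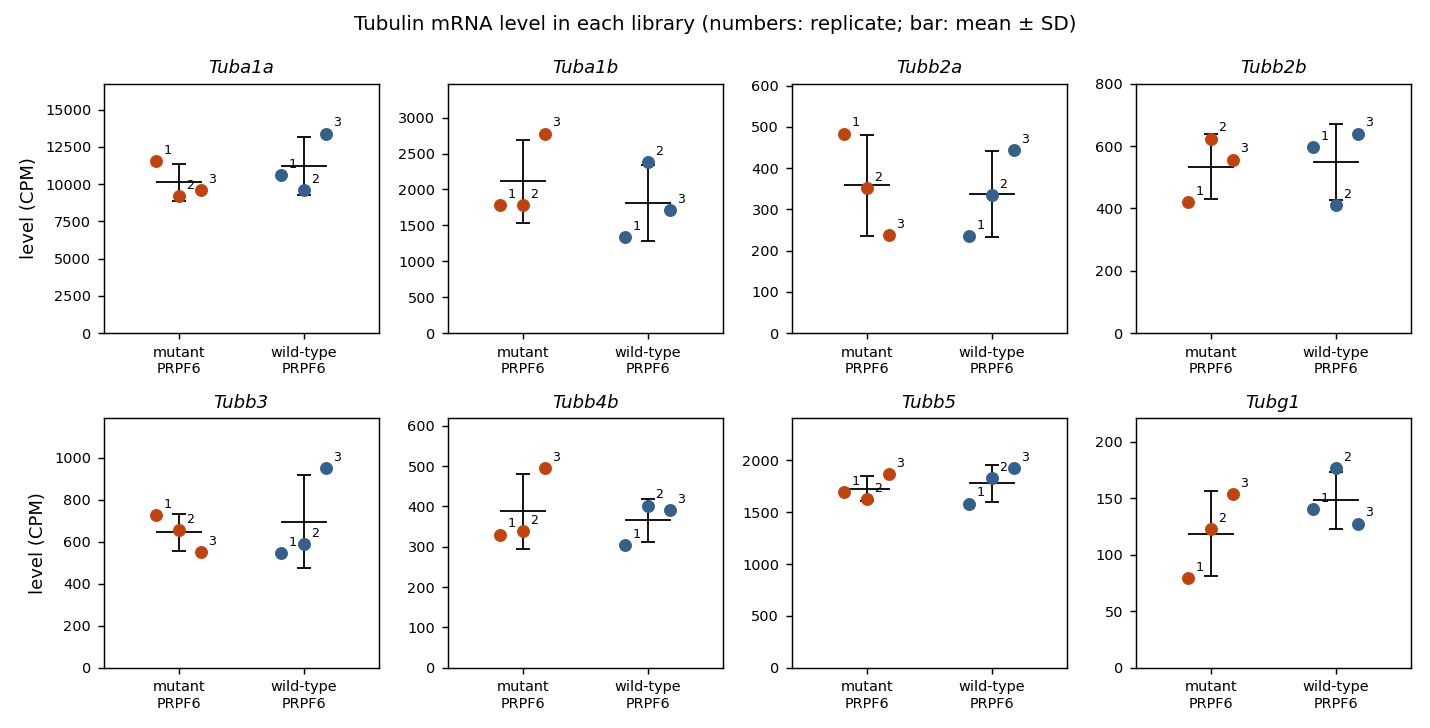
Level of each tubulin mRNA in CPM (vertical axes, linear from 0) in the 3 mutant PRPF6 libraries (orange, left) and the 3 wild-type PRPF6 libraries (blue, right); numbers give the replicate, bars the mean ± SD. The groups overlap in all 8 panels, and the highest and lowest libraries differ from gene to gene.

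The question of the design is whether these mRNAs depend on the PRPF6 variant a cell received. In edgeR's quasi-likelihood test (Benjamini-Hochberg adjustment) 0 of the 8 tubulin genes passed at an adjusted p under 0.05, as did 0% of the 14451 tested genes (lowest adjusted p = 1.00). Before adjustment 0 of the 8 had p under 0.05, against 3.38% of all tested genes (2.18% with a higher and 1.20% with a lower mutant level). The share stands for 489 genes, and the count was 1016 without mutant replicate 2 and 307 with a replicate block, with 0 of the 8 among either. For 0 of the 8 did the ranges of the groups stay apart, against 9.14% of all (4.60% higher and 4.54% lower). DESeq2 and limma-voom also called 0 of the 8, with 0 at an unadjusted p under 0.05 by either. Over all genes DESeq2 called 6, or 0.104% of those it gave an adjusted p, and limma-voom called 0. The median log2 difference was −0.042 over the 8 genes and −0.0013 over all tested genes. A two-sided exact permutation test on log2 CPM, whose smallest p for 3 against 3 libraries is 0.10, gave p of 0.40 to 0.90 for the 8 genes (0.90 for each after Benjamini-Hochberg adjustment over the 8).

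Tuba1a encodes the main α-tubulin of young neurons. It was at 11528, 9219 and 9590 CPM in mutant replicates 1 to 3, against 10584, 9617 and 13397 CPM in wild-type replicates 1 to 3. Wild-type replicate 3 was the highest library, and the other libraries of the groups overlapped. The log2 difference was −0.15 ± 0.16 (SE; edgeR adjusted p = 1.00), with a 95% interval of −0.52 to 0.22, that is, of 0.699-fold to 1.17-fold. Without wild-type replicate 3 the difference was 0.0059.

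Tuba1b, an α isotype of most tissues and of dividing cells, was at 1778, 1780.4 and 2779 CPM in mutant and at 1337, 2379 and 1713 CPM in wild-type replicates 1 to 3. Mutant replicate 3 and wild-type replicate 2 were the highest, so that each group held a high library. The log2 difference was 0.22 ± 0.25 (SE; adjusted p = 1.00; 95% interval −0.36 to 0.81), and −0.026 without mutant replicate 3. Summing Tuba1b with Tuba1a and Tuba1c removes the division of reads among them, but not any division with other genes such as Gm49450. Together the 3 genes were at 13396, 11123 and 12570 CPM in mutant and at 12026, 12132 and 15229 CPM in wild-type replicates 1 to 3. The sum differed by −0.087 ± 0.14 (log2, SE; adjusted p = 1.00), and by 0.038 without wild-type replicate 3.

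Tubb3, the isotype of neurons, was at 727, 656 and 549.9 CPM in mutant and at 544, 590.1 and 949 CPM in wild-type replicates 1 to 3. Wild-type replicate 3 again stood highest, and the other wild-type libraries lay within or below the mutant range. The log2 difference was −0.11 ± 0.23 (SE; adjusted p = 1.00; 95% interval −0.64 to 0.42). Without wild-type replicate 3 it was 0.19, and without both that library and mutant replicate 1 it was 0.093. Set beside it, 10 markers of newborn neurons all had lower means in the mutant libraries, at a median of −0.87 (log2). Their summed level was 1468 to 3145 CPM in mutant and 3192 to 4775 CPM in wild-type libraries, with none of the 10 at 0. None passed edgeR's adjusted test, while 5 of the 10 had an unadjusted p under 0.05 in the lower direction, against 1.20% of all tested genes. The list was chosen with earlier results of these data known, so these counts are a description and not independent evidence. The part of these markers in the Tubb3 values was not tested. The highest sum, in wild-type replicate 1, stood in the library with the lowest Tubb3. Markers within the list differed in this. Stmn2, chosen here after its values were seen like the next, was at 126, 159 and 97.0 CPM in mutant and at 152, 223 and 350.1 CPM in wild-type replicates 1 to 3. Gap43 was at 118, 138 and 89.1 CPM in mutant and at 119.9, 182 and 242 CPM in wild-type replicates 1 to 3, so both were highest, like Tubb3, in wild-type replicate 3. In sorted bulk cells, fewer cells of a type and less RNA per cell cannot be told apart.

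Tubb2a and Tubb2b are neighbouring β genes of nearly the same protein, both prominent in neurons. Tubb2a was at 484, 352 and 238 CPM in mutant and at 234, 335 and 444 CPM in wild-type replicates 1 to 3, so that each group covered nearly the same range. Tubb2b was at 419, 624 and 556 CPM in mutant and at 597, 410.2 and 640.3 CPM in wild-type replicates 1 to 3. Their log2 differences were 0.084 ± 0.30 for Tubb2a and −0.043 ± 0.22 for Tubb2b (SE; adjusted p = 1.00 each), with 95% intervals of −0.61 to 0.78 and −0.54 to 0.45. Either sign depended on single libraries: Tubb2a was at −0.20 without mutant replicate 1 and at −0.12 without wild-type replicate 1, and Tubb2b was above 0 without any of mutant replicate 1, wild-type replicate 1 or wild-type replicate 3.

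The pair did not keep a fixed ratio. Per length, Tubb2b over Tubb2a was 0.608, 1.24 and 1.64 in mutant and 1.79, 0.858 and 1.01 in wild-type replicates 1 to 3. The extremes, mutant replicate 1 and wild-type replicate 1, belong to different groups. The sum of both genes varied less, at 903, 976 and 794 CPM in mutant and 832, 746 and 1084 CPM in wild-type replicates 1 to 3, with a log2 difference of 0.0064 ± 0.17 (SE; adjusted p = 1.00), which was below 0 without any of mutant replicates 1 and 2 or wild-type replicates 1 and 2. The part of shared reads in this ratio was not tested.

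Tubb5 is the most abundant β isotype here. It was at 1691, 1625 and 1864 CPM in mutant and at 1582, 1825 and 1923 CPM in wild-type replicates 1 to 3. It was the steadiest of the 8 genes, the highest library being 1.22-fold above the lowest, and its log2 difference was −0.041 ± 0.13 (SE; adjusted p = 1.00; 95% interval −0.35 to 0.26). Its sign turned when mutant replicate 2 (0.0016) or wild-type replicate 3 (0.024) was left out. Tubb4b, a widely expressed β isotype, was at 330.2, 339 and 495 CPM in mutant and at 304, 402 and 391 CPM in wild-type replicates 1 to 3. Mutant replicate 3 was its highest library. Its log2 difference was 0.086 ± 0.20 (SE; adjusted p = 1.00; 95% interval −0.38 to 0.55). It was −0.13 without that library and −0.030 without wild-type replicate 1.

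Tubg1 encodes the γ-tubulin of the ring complex that seeds microtubules. It was at 79.2, 122 and 154 CPM in mutant and at 140.1, 177 and 128 CPM in wild-type replicates 1 to 3. Mutant replicate 1 was the lowest library and wild-type replicate 2 the highest, a 2.23-fold span that was the widest of the 8 genes. The log2 difference, −0.32 ± 0.26 (SE; adjusted p = 1.00; 95% interval −0.91 to 0.27), was also the largest. Tubg1 stayed below 0 in each fit without 1 library, at −0.56 to −0.10, the smallest difference being that without mutant replicate 1.

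**Figure D2:**
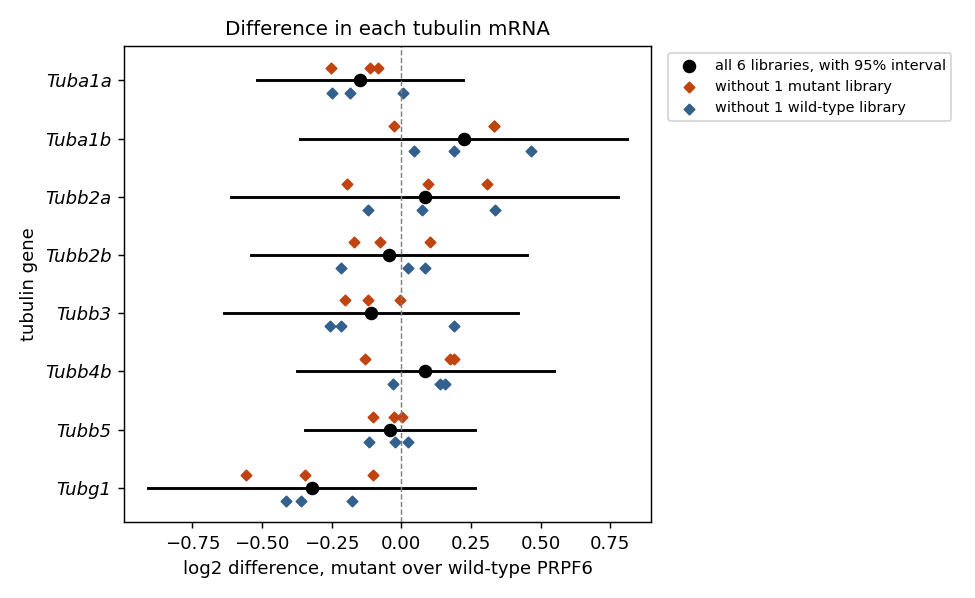
Log2 difference of each tubulin mRNA, mutant over wild-type PRPF6 (horizontal axis), from all 6 libraries with its 95% interval (black) and without 1 mutant (orange) or 1 wild-type library (blue). Every interval crosses 0, and leaving out single libraries moves all genes except Tubg1 across 0.

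Isotype shares do not depend on library scaling, but those of the β genes depend on the length used. Within the Tuba1 and Tubb2 pairs they also rest on the uncertain split of reads. Of the per-length sum of α-tubulin mRNA, Tuba1a made up 86.6%, 83.5% and 77.1% in mutant and 88.4%, 80.0% and 88.4% in wild-type replicates 1 to 3. Tuba1b made up 12.8%, 15.5% and 21.5% in mutant and 10.7%, 19.0% and 10.9% in wild-type replicates 1 to 3, so the groups overlapped for both. Of β-tubulin mRNA, Tubb5 made up 32.6% ± 3.29 with mutant and 33.1% ± 3.33 with wild-type PRPF6, and Tubb3 21.6% ± 2.19 with mutant and 22.5% ± 2.91 with wild-type PRPF6 (SD, n = 3 each). Tubb2b took 14.6% ± 3.26 with mutant and 14.9% ± 3.65 with wild-type PRPF6. Tubb2a took 13.8% ± 4.23 with mutant and 12.7% ± 1.90 with wild-type PRPF6, and Tubb4b 11.7% ± 3.21 with mutant and 10.9% ± 1.53 with wild-type PRPF6. The largest mean difference was −3.18 percentage points, for Tuba1a, less than the spread within either group. The sum of α over β mRNA, per length, was 4.43, 3.87 and 4.48 in mutant and 4.80, 4.34 and 4.27 in wild-type replicates 1 to 3. Summed over all annotated genes of a kind, α-tubulin differed by −0.088 ± 0.14 and β-tubulin by −0.033 ± 0.14 (log2, SE; edgeR adjusted p = 1.00 each), and by 0.035 and 0.11 without wild-type replicate 3.

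**Figure D3:**
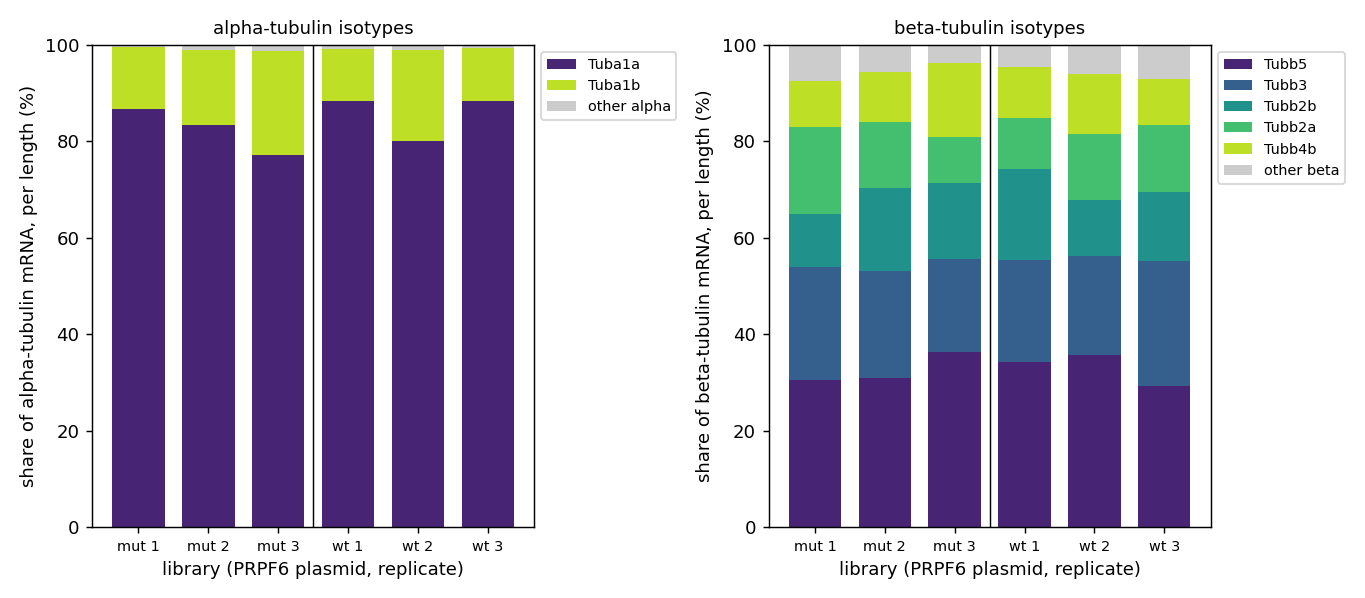
Share of each isotype in the α-tubulin mRNA (left) and β-tubulin mRNA (right) of a library, in % of the sum per length, for mutant replicates 1 to 3 (mut) and wild-type replicates 1 to 3 (wt), with the remaining genes of the kind in grey. Tuba1a holds 77.1% to 88.4% of α-tubulin mRNA, and the shares of every named isotype overlap between the groups.

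The 8 genes did not share 1 pattern across libraries. As a measure of likeness, each gene's log2 CPM was centred over the 6 libraries, and the root mean square distance between profiles was taken. The closest pairs were Tubb4b with Tubb5 (0.156), Tuba1a with Tubb3 (0.165) and Tuba1b with Tubb4b (0.167), and the furthest was Tubb2a with Tubg1 (0.69). Tubb2a and Tubb2b, for all their likeness in sequence, stood 0.54 apart, while Tubb2a and Tubb3 stood 0.23 apart. Among the 9969 other genes with a mean of at least 10 CPM, the profiles nearest to Tubb3 were those of Rhob (0.089), Socs2 (0.089) and Atox1 (0.098), where the median gene stood 0.42 away. Nearest to Tubb2b were Eaf1 (0.035), Gpatch2l (0.073) and Rap2b (0.078), and nearest to Tubb4b were Rab8a (0.039), Ccdc94 (0.048) and Mtpap (0.052). These are descriptions over 6 libraries.

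The following pairings of tubulin genes with marker sums were chosen after the values were seen. Tubb2a and Tubb3 were high in mutant replicate 1 and wild-type replicate 3 and lowest in wild-type replicate 1. The 6 markers of interneurons, inhibitory neurons that migrate into the cortex from the ventral forebrain, had summed levels of 727, 384 and 290 CPM in mutant and 139.6, 394 and 846 CPM in wild-type replicates 1 to 3. The same pair of libraries was highest and the same library lowest. Tuba1a was also highest in that pair of libraries, but lowest in mutant replicate 2. Dlx2, the most abundant of these markers, was at 252, 142 and 117 CPM in mutant and at 70.7, 128 and 302 CPM in wild-type replicates 1 to 3. Not every marker followed the sum: Lhx6 was at 44.6, 47.8 and 2.21 CPM in mutant and at 7.75, 35.4 and 71.4 CPM in wild-type replicates 1 to 3. None of the 6 interneuron markers was at 0 in any library, and their part in the Tubb2a, Tubb3 and Tuba1a levels was not tested.

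Tuba1b, Tubb4b and Tubg1 had mutant replicate 3 and wild-type replicate 2 as their highest libraries. The summed level of 12 genes of G2 phase and mitosis was 1555, 2243 and 3827 CPM in mutant and 1993, 2909 and 1820 CPM in wild-type replicates 1 to 3, highest in the same pair. Top2a, which untangles DNA before division, was at 262, 385 and 519.8 CPM in mutant and at 320.3, 485 and 296 CPM in wild-type replicates 1 to 3. Tubg1 was lowest where the sum was lowest, in mutant replicate 1. Tuba1b and Tubb4b were lowest in wild-type replicate 1, where the sum was neither highest nor lowest. Radial glia markers, all 10 with higher means in the mutant group, summed to 2473 to 4570 CPM in mutant and 1819 to 2534 CPM in wild-type libraries. Before adjustment 5 of the 10 had p under 0.05 in the higher direction, against 2.18% of all tested genes, and 0 passed after it. This list, too, was chosen with earlier results of these data known, so its counts are a description. The part of radial glia and of dividing cells in the tubulin levels was not tested.

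**Figure D4:**
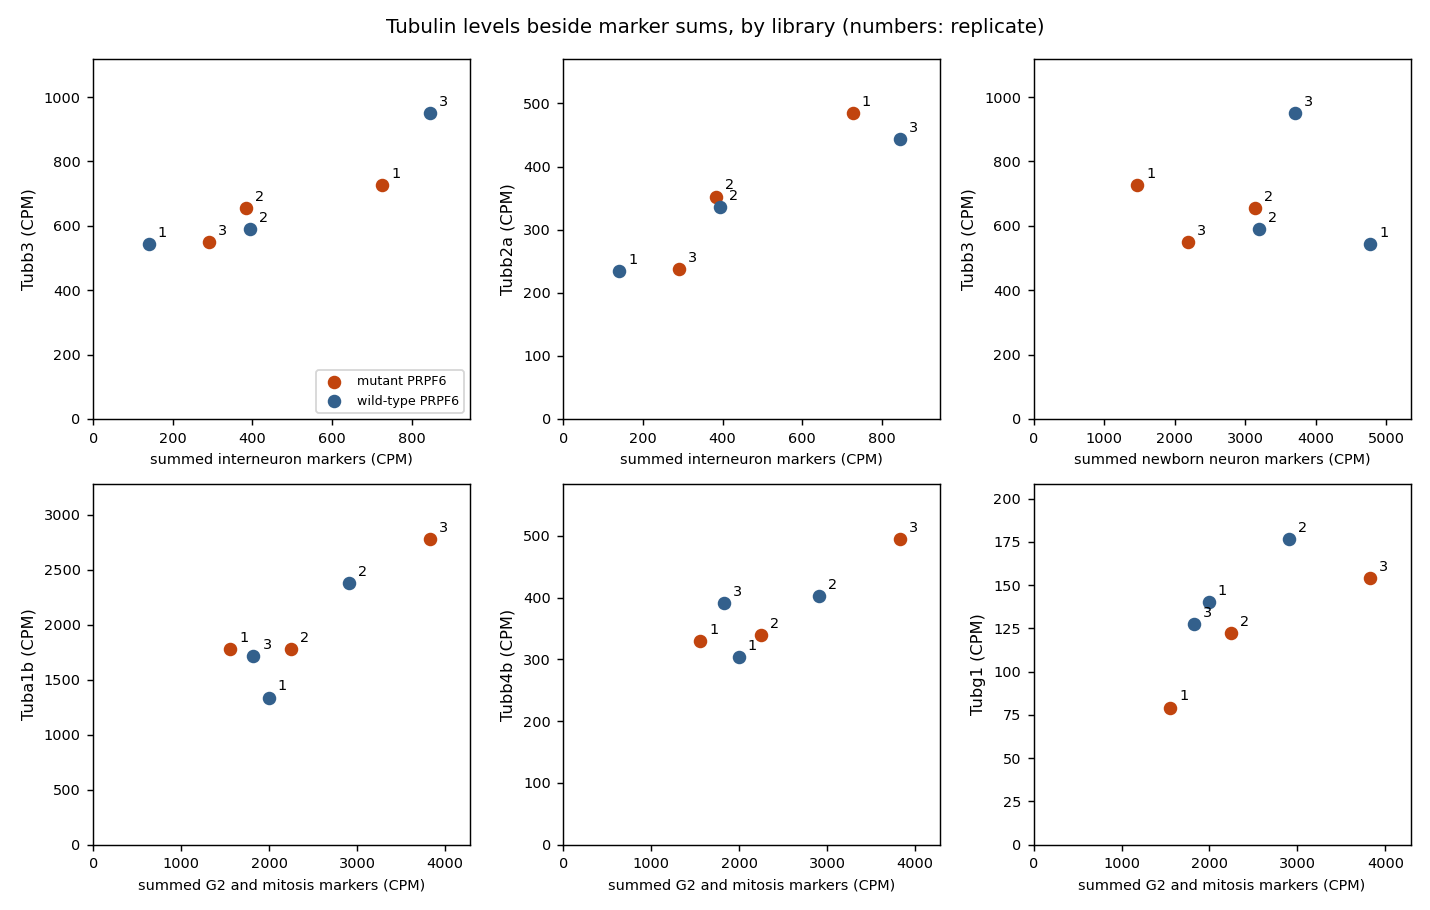
Tubulin level (vertical axes, CPM) against the summed level of a marker list (horizontal axes, CPM) in each mutant PRPF6 (orange) and wild-type PRPF6 (blue) library, numbered by replicate. Tubb3 and Tubb2a are highest in the pair of libraries with the highest interneuron sums, 727 and 846 CPM, Tubb3 is lowest at the highest newborn neuron sum, 4775 CPM, and Tuba1b, Tubb4b and Tubg1 are highest in the pair with the highest G2 and mitosis sums.

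The other tubulin genes were much scarcer, apart from Tubb4a, a β isotype of neurons and of myelinating glia, and Tuba1c. Tubb4a was at 269.8, 176 and 119 CPM in mutant and at 144, 190.5 and 266 CPM in wild-type replicates 1 to 3, high in the same pair of libraries as Tubb2a. Tuba1c was at 89.4, 124 and 200.1 CPM in mutant and at 106, 136 and 118 CPM in wild-type replicates 1 to 3, highest in mutant replicate 3 like Tuba1b, with which it shares 150-base windows. Of the 12 genes 8 were tested, 2 with higher and 6 with lower means with mutant PRPF6, and 0 passed. Tuba4a averaged 22.1 ± 16.3 CPM with mutant and 38.3 ± 12.4 CPM with wild-type PRPF6 (SD, n = 3 each). Tubg2, the other γ-tubulin gene, was at 9.38 ± 6.18 CPM with mutant and 8.47 ± 6.06 CPM with wild-type PRPF6. Tubd1 (δ-tubulin) was at 6.39 ± 3.04 CPM with mutant and 8.45 ± 4.39 CPM with wild-type PRPF6, and Tube1 (ε-tubulin) at 14.7 ± 2.50 CPM with mutant and 20.5 ± 8.52 CPM with wild-type PRPF6. Tuba3a, Tuba3b, Tuba8 and Tubal3 did not pass the filter, and none exceeded 0.36 CPM in any library. Tuba3b had a count of 0 in all 6, which allows up to 0.0492 to 0.0684 CPM per library (3 counts, counting error only).

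Genes that fold, seed, modify and regulate tubulin also gave no call. Their lists, like the marker lists, were chosen with earlier results of these data known. Of 66 tested genes in the 5 lists, the other tubulins included, 27 had higher and 39 lower means with mutant PRPF6, and 0 passed edgeR's test. Before adjustment 1 of the 66 had p under 0.05, in the lower direction, against 1.20% of all tested genes. That gene was Vash1, whose enzyme, with its partner Svbp, removes the last tyrosine of α-tubulin. Vash1 was at 18.5, 29.2 and 28.3 CPM in mutant and at 48.6, 36.0 and 40.9 CPM in wild-type replicates 1 to 3, with no overlap. Its log2 difference was −0.72 ± 0.27 (SE; unadjusted p = 0.0259, edgeR adjusted p = 1.00). Svbp, listed under its older symbol Ccdc23, was at 71.9, 63.3 and 61.6 CPM in mutant and at 74.9, 74.1 and 86.2 CPM in wild-type replicates 1 to 3, also with no overlap (−0.26 ± 0.17).

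Of the 17 tested modification genes 11 had lower and 6 higher means, with a median log2 difference of −0.11. In 3 all mutant libraries lay below all wild-type libraries, against 4.54% of all tested genes. They were Vash1, Svbp and Ttll7, a polyglutamylase named after its values were seen, at 3.27 ± 0.512 CPM with mutant and 4.90 ± 0.848 CPM with wild-type PRPF6 (SD, n = 3 each). Agtpbp1, which shortens glutamate chains, was at 14.9 ± 9.44 CPM with mutant and 27.1 ± 10.7 CPM with wild-type PRPF6, and the groups overlapped. The lower newborn neuron sums of the mutant libraries, given above, have the same sign, and their part in these values was not tested.

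The folding list, with the chaperonin and prefoldin subunits and the tubulin cofactors, was tightly grouped, with all 21 log2 differences between −0.30 and 0.17 and a median of −0.052. For 1 of the 21 the lowest mutant library exceeded the highest wild-type library, against 4.60% of all tested genes. It was the prefoldin gene Pfdn1, named after its values were seen, at 43.2, 39.5 and 43.8 CPM in mutant and at 38.5, 35.1 and 39.5 CPM in wild-type replicates 1 to 3. Its smallest p-values belonged to the prefoldin genes Pfdn4 (−0.30 ± 0.22) and Vbp1 (−0.17 ± 0.17) and the cofactor gene Tbcc (−0.25 ± 0.26, SE each), none with an unadjusted p under 0.05. The γ-tubulin ring and augmin list had 9 higher and 8 lower of 17, with a median of 0.040. Its ring component Tubgcp5 was at 51.9, 60.7 and 58.5 CPM in mutant and at 38.3, 51.2 and 40.7 CPM in wild-type replicates 1 to 3, with no overlap. This was 1 of the 17 with all mutant libraries above all wild-type libraries, against 4.60% of all tested genes. The log2 difference of Tubgcp5 was 0.39 ± 0.20 (SE; edgeR adjusted p = 1.00), opposite in sign to that of Tubg1, and neither gene passed the test. Tubgcp6 differed by 0.58 ± 0.35 and Mzt1, a small ring subunit, by −0.23 ± 0.16 (SE each).

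Cells adjust tubulin mRNA to the supply of free tubulin, a feedback in which TTC5 binds the beginning of tubulin chains on the ribosome and recruits SCAPER and, through CNOT11, the CCR4-NOT complex that degrades mRNA. Ttc5 was at 129.9 ± 17.6 CPM with mutant and 133 ± 12.5 CPM with wild-type PRPF6 (SD, n = 3 each). Scaper was at 33.4 ± 4.57 CPM with mutant and 37.7 ± 12.3 CPM with wild-type PRPF6, and Cnot11 at 55.2 ± 7.53 CPM with mutant and 47.4 ± 9.74 CPM with wild-type PRPF6. All 3 overlapped between groups.

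**Figure D5:**
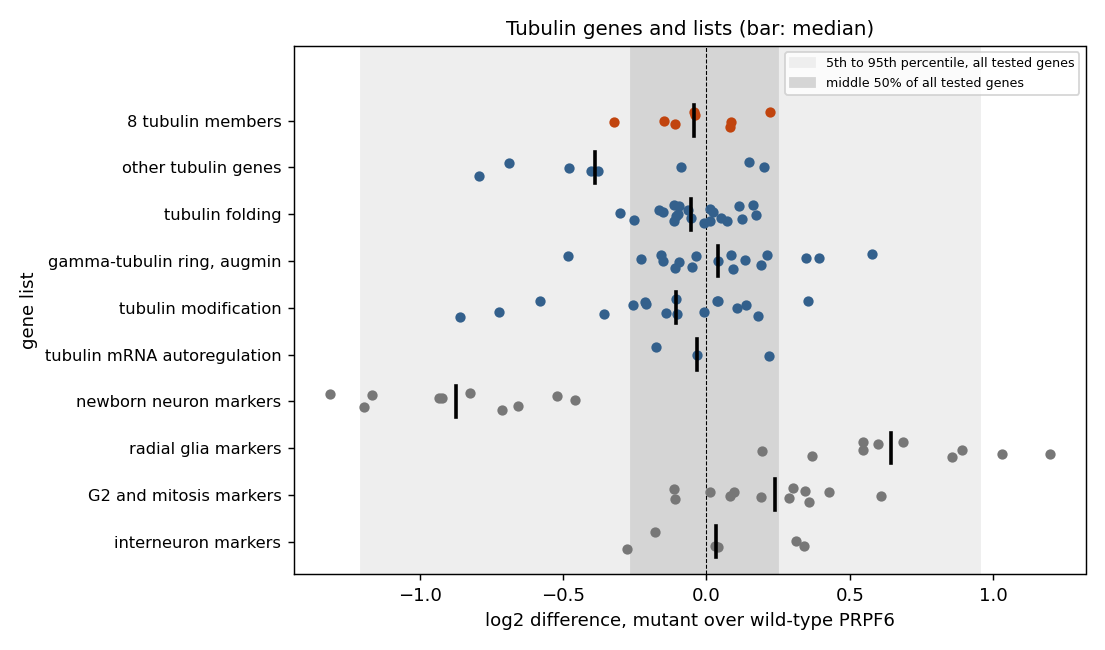
Log2 difference, mutant over wild-type PRPF6 (horizontal axis), of each tested gene in the tubulin set (orange), the tubulin pathway lists (blue) and 4 marker lists (grey), with list medians (black bars) and the spread of all tested genes (shading). The tubulin genes lie around a median of −0.042, the newborn neuron markers around −0.87 and the radial glia markers around 0.64.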

How the data were processed

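The authors deposited expected counts for each gene. The submitters' processing notes name RSEM and mm10, and no depth scaling had been applied. For the aligner, RSEM's version, the annotation and the strand setting, the sources used here give nothing. Expected counts were rounded, filtered with filterByExpr and scaled with TMM factors (0.972 to 1.02). The model of edgeR 4.0.16 in R 4.3.3 held the group alone, with a robust two-sided quasi-likelihood F-test. Benjamini-Hochberg p-values were adjusted over all 14451 tested genes at a threshold of 0.05. The steps were also run on simulated data. Changes there were larger than any tubulin difference here, so the simulation does not bear on differences of this size. CPM use library totals times TMM factors. Amplified reads without molecular identifiers are not independent molecules, so the upper bound given for a gene without counts covers counting error only. The 95% intervals of the log2 differences come from the edgeR fit, which includes the spread between libraries. Exon lengths, coordinates and sequences are those of GENCODE M21 (GRCm38), and sequences were aligned with Biopython 1.88. Of 147 entries in 14 gene lists, 146 were found, 2 under older symbols. All members, every detected gene of the other-tubulin and autoregulation lists, Prpf6, the 3 genes of smallest p in each other pathway list, and the 3 profiles nearest to Tubb3, Tubb2b and Tubb4b were named. From marker lists at most 2 of the most abundant genes were eligible. Alternatives covered scaling, filters, rounding, tools, thresholds, a replicate block, gene length and left-out libraries. The members and lists were chosen with earlier results of these data known. The ends of the α-tubulin coding sequences are not reported here.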

Additional observations from a re-analysis of the deposited data

How the results depend on the processing

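No tubulin gene passed under any alternative: DESeq2 size factors, upper-quartile factors, no filter or a filter of 1 CPM in 3 libraries, unrounded counts, DESeq2, limma-voom, no robust estimation, a threshold of 0.1, a replicate block, or leaving out libraries. Over all genes the count was 0 everywhere except 6 with DESeq2 1.42.0. At an unadjusted p under 0.05 stood 489 genes, against 307 with the replicate block and 383 to 1016 without 1 library. Same-numbered libraries did not deviate together (r across genes of 0.054, 0.061 and −0.26). With the replicate block 0 genes were called and no tubulin difference changed sign, Tubg1 being at −0.36. Without 1 library the log2 differences ran from −0.25 to 0.0059 for Tuba1a, −0.026 to 0.47 for Tuba1b, −0.20 to 0.33 for Tubb2a, −0.22 to 0.10 for Tubb2b, −0.25 to 0.19 for Tubb3, −0.13 to 0.19 for Tubb4b, −0.12 to 0.024 for Tubb5 and −0.56 to −0.10 for Tubg1. They ran from −0.15 to 0.038 for the Tuba1 sum, −0.11 to 0.18 for the Tubb2 sum, −0.15 to 0.035 for all α-tubulin and −0.13 to 0.11 for all β-tubulin. With wild-type replicate 3 and mutant replicate 1 left out together, the sign turned for Tubb2b (0.23), Tubb3 (0.093) and Tubb5 (0.039). By coding length in place of exon length Tubb5 made up 44.96% of β-tubulin mRNA with mutant and 45.5% with wild-type PRPF6, and Tubb4b averaged above Tubb2a, while share differences moved by less than the spread between replicates.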

Other observations

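Tubb6, a β isotype with low levels in neurons, was at 12.4, 15.6 and 10.1 CPM in mutant and at 0.193, 6.76 and 42.5 CPM in wild-type replicates 1 to 3. Its highest library, wild-type replicate 3, was also highest in the sums of 7 meningeal fibroblast markers, 10 distinct red blood cell markers and 6 endothelial markers. The endothelial sums were 0.889 to 43.6 CPM in mutant and 0.537 to 110.1 CPM in wild-type libraries. Tubb1, the β isotype of platelets and their precursors, was at 0.0516, 5.99 and 0 CPM in mutant and at 0.773, 6.20 and 2.76 CPM in wild-type replicates 1 to 3. Microglia markers, 6 in number, summed to 20.6, 611 and 29.4 CPM in mutant and to 79.6, 233 and 154 CPM in wild-type replicates 1 to 3, with the same 3 libraries highest. These pairings were chosen after the values were seen, and the markers' part in the levels was not tested.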
